A study of Homo sapiens with 3 samples.

Results

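The cytosolic ribosomal protein genes were followed one by one in 3 Drop-seq libraries of prostate cancer cells, a droplet method that counts 1 unique molecular identifier (UMI) for each captured messenger RNA near its 3′ end. Members were chosen by name, together with RPLP0, RPLP1, RPLP2 and RPSA. The name rule took symbols of RPL (large subunit) or RPS (small subunit) and a number. A letter A, X or L and further digits could follow, so RPL36AL was left out. This gave 84 members of 33423 genes, 52 of the large and 32 of the small subunit. All 84 had a row in both VCaP files and 82 in the LNCaP file, which had no row for RPL3L and RPL39L. Of the 84, 7 are paralogues, additional genes that code for a close relative of a ribosomal protein (RPL3L, RPL7L1, RPL10L, RPL22L1, RPL26L1, RPL39L and RPS27L), and 77 are the usual genes.

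LNCaP and VCaP are human prostate cancer lines whose growth depends on androgen, and enzalutamide (ENZ) is a drug that blocks the response to androgen. LNCaP–ENZ168 was exposed to 10 µM enzalutamide for 168 h, VCaP–ENZ48 to 10 µM enzalutamide for 48 h, and VCaP parental to 0.1% DMSO, the vehicle, for 48 h. The labels call both lines enzalutamide sensitive. Each group had 1 library, so no difference could be tested, every value compares libraries rather than conditions, and every interval below is a 95% interval that covers counting error only. LNCaP–ENZ168 had no vehicle library here, and its line, its exposure time and its description code differ together from those of the VCaP libraries, so these cannot be told apart.

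After cells with few genes, few UMIs or a high mitochondrial share were left out, LNCaP–ENZ168 kept 944 cells (6313283 UMIs), VCaP parental 997 (19515202 UMIs) and VCaP–ENZ48 947 (14301287 UMIs). Where 3 values follow each other without names below, they stand in this order. The prostate luminal genes KRT8, KRT18, HOXB13 and KLK2 were present in each library, ERG, which VCaP expresses from a fusion, had 0 UMIs in LNCaP–ENZ168 and 2052 and 816 in the VCaP libraries, and the leukocyte, endothelial and fibroblast genes had at most 12 UMIs in any library. No cell barcode was shared between libraries. Barcodes whose last letter is N made up 205, 859 and 820 of the kept cells, and the labels do not say why.

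A ribosome has a small subunit that reads the messenger RNA and a large subunit that joins the amino acids. Each subunit is built from ribosomal RNA and from proteins that are needed in about equal number, and growing cells spend much of their messenger RNA on them. Messenger RNAs of these proteins typically start with a C followed by a run of pyrimidines, the 5′ terminal oligopyrimidine (TOP) tract, through which the kinase mTORC1 controls their translation. Several of the proteins also act outside the ribosome, and most of the genes have many processed pseudogenes, copies of the messenger RNA set back into the genome.

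The start sites are shown for 3 usual genes beside their paralogues, which parted from the class in the counts, and for 5 further members described below. Each window is 25 bases from RefSeq (GRCh38.p14), 10 before the annotated transcription start and 15 from it, on the transcribed strand, and the capitals mark the longest run found of a C with at least 4 further pyrimidines after it that begins within 10 bases of the start.
RPL22, chr1:6199581-6199605, minus strand: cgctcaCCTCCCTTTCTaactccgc
RPL22L1, chr3:170870181-170870205, minus strand: ccgtagCTTCCTCTCTgctctcgcg
RPS27, chr1:153990752-153990776, plus strand: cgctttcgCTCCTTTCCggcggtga
RPS27L, chr15:63157463-63157487, minus strand: gatgccgagcgcagatcgcttgcag
RPL26, chr17:8383179-8383203, minus strand: gcgtgtagttCTCTTCCCTTTTgcg
RPL26L1, chr5:172958719-172958743, plus strand: tccaggggtcggcgaacgaaacgcg
RPS6, chr9:19380222-19380246, minus strand: gaagttggCCCTCTTTTCCgtggcg
RPLP1, chr15:69452808-69452832, plus strand: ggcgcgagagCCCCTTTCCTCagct
RPS18, chr6:33272065-33272089, plus strand: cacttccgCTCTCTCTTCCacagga
RPSA, chr3:39406710-39406734, plus strand: tgccgcctgtCTTTTCCgtgctacc
RPS3A, chr4:151099618-151099642, plus strand: cccacttccgCCCTTTTggctctct

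A run of this kind stood within 10 bases of 64 of the 77 annotated starts of the usual genes (83.1%) and of 33.5% of the 35116 annotated starts in the table. The start base itself was a C with at least 4 further pyrimidines after it at 46 of the 77 (59.7%) and at 4.07% of all starts. These counts include starts where the run had begun before the start base. Among the paralogues, 1 of 6 starts had a run within 10 bases, that of RPL22L1, whereas RPS27L and the starts of RPL26L1 had none. The table held starts for 67 of the 84 members, and some genes have several starts.

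The 84 members took 10.2% of all UMIs in LNCaP–ENZ168, 20.3% in VCaP parental (exact Clopper-Pearson interval from 20.29% to 20.32%) and 24.7% in VCaP–ENZ48. The LNCaP library therefore gave the lowest share and the enzalutamide-treated VCaP library the highest. Mitochondrial genes took 8.94%, 6.24% and 7.49% of the UMIs, and MALAT1, a nuclear RNA, stood at 28539, 44632 and 63406 CPM, the count of UMIs scaled to a library of 1000000. MALAT1 thus had the same order across the libraries as the ribosomal protein share, and its part in that order was not tested.

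Within a library the share varied between cells by far more than counting. The median cell gave 9.11% of its UMIs to ribosomal proteins in LNCaP–ENZ168, 20.4% in VCaP parental and 24.3% in VCaP–ENZ48. The standard deviation over cells was 3.71, 3.36 and 7.47 percentage points, where counting alone gave 0.41, 0.31 and 0.49. VCaP–ENZ48 was the broadest, with 5% of its cells below 9.34% and 5% above 33.8%, and VCaP parental ran from 14.9% to 25.6% between the same limits. When the cells of a library were split by depth into 3 equal groups, the median share in VCaP–ENZ48 was 22.6% in the shallowest group and 26.3% in the deepest, against 20.9% and 20.4% in VCaP parental.

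**Figure D1:**
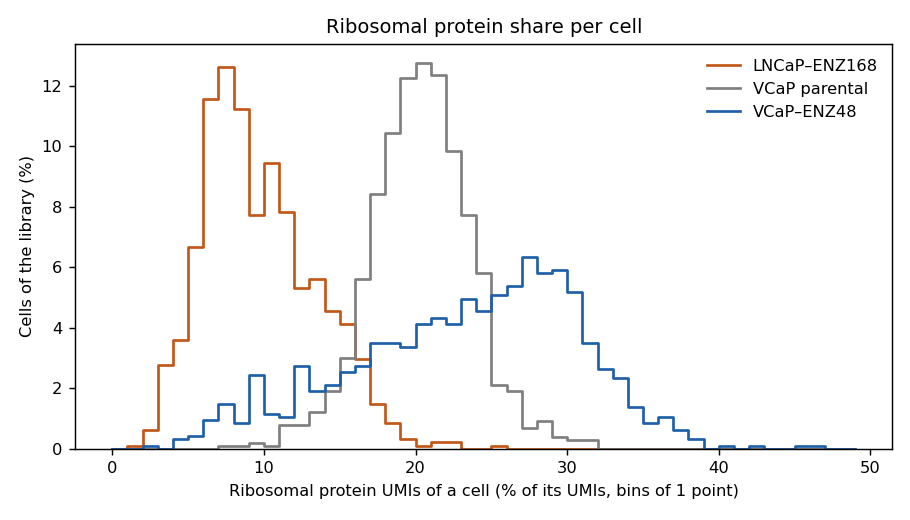
The horizontal axis is the share of a cell's UMIs that fell on the 84 members, in bins of 1 percentage point, and the vertical axis is the percentage of the library's cells in each bin. VCaP parental is narrow around its median of 20.4%, LNCaP–ENZ168 lies around 9.11%, and VCaP–ENZ48 spreads widely around 24.3%.

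Both subunits moved together from cell to cell. Pearson's r between the large-subunit and the small-subunit share over cells was 0.96 in LNCaP–ENZ168 (944 cells), 0.95 in VCaP parental (997 cells) and 0.98 in VCaP–ENZ48 (947 cells), as a description of cells that share a library and a total. Against the mitochondrial share of the same cells, r of the ribosomal protein share was -0.00035, -0.21 and -0.46 in the same order.

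The summed share of each subunit differed between the libraries. Large-subunit members held 59.6% of the ribosomal protein UMIs in LNCaP–ENZ168 (59.5% to 59.7%), 55.0% in the parental VCaP library (54.99% to 55.1%) and 56.7% after 48 h of enzalutamide (56.7% to 56.8%). These shares do not depend on how the libraries are scaled to each other. They do depend on single abundant members. The small-subunit member RPS18 held 1.313%, 4.179% and 4.894% of the ribosomal protein UMIs, and RPS19 held 1.095%, 5.617% and 4.204%. The shares were not recomputed without these members. Median member ratios of LNCaP–ENZ168 to VCaP–ENZ48, given below, were close, at -1.37 (large) and -1.43 (small). A difference of whole subunits was therefore not shown. Among the 16 usual members whose sequence is nearly unique, as defined below, the large-subunit share was 57.3%, 47.2% and 48.8%, lower in each library but with the same order. RPS19 is among these 16.

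The most abundant members were largely the same in the VCaP libraries. UMIs mark 3′ ends, so CPM was not divided by transcript length. RPS19, a small-subunit protein whose loss causes Diamond-Blackfan anaemia, was the highest member in VCaP parental and stood at 1115, 11405 and 10374 CPM. RPS6, the small-subunit protein that the S6 kinases phosphorylate, stood at 4925, 10669.5 and 10713 CPM and was the highest in LNCaP–ENZ168. RPS18, a protein of the small-subunit head, was the highest in VCaP–ENZ48 and stood at 1336, 8485 and 12075 CPM. RPS6 was thus among the top 2 in each library, whereas RPS19 and RPS18 ranked 38 and 31 of 84 in LNCaP–ENZ168. RPL13 and RPL3 were also among the top 5 in LNCaP–ENZ168, with 3778 and 3592 CPM, and RPL13A was among the top 5 in LNCaP–ENZ168 and VCaP–ENZ48 with 3412 and 8529 CPM.

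**Figure D2:**
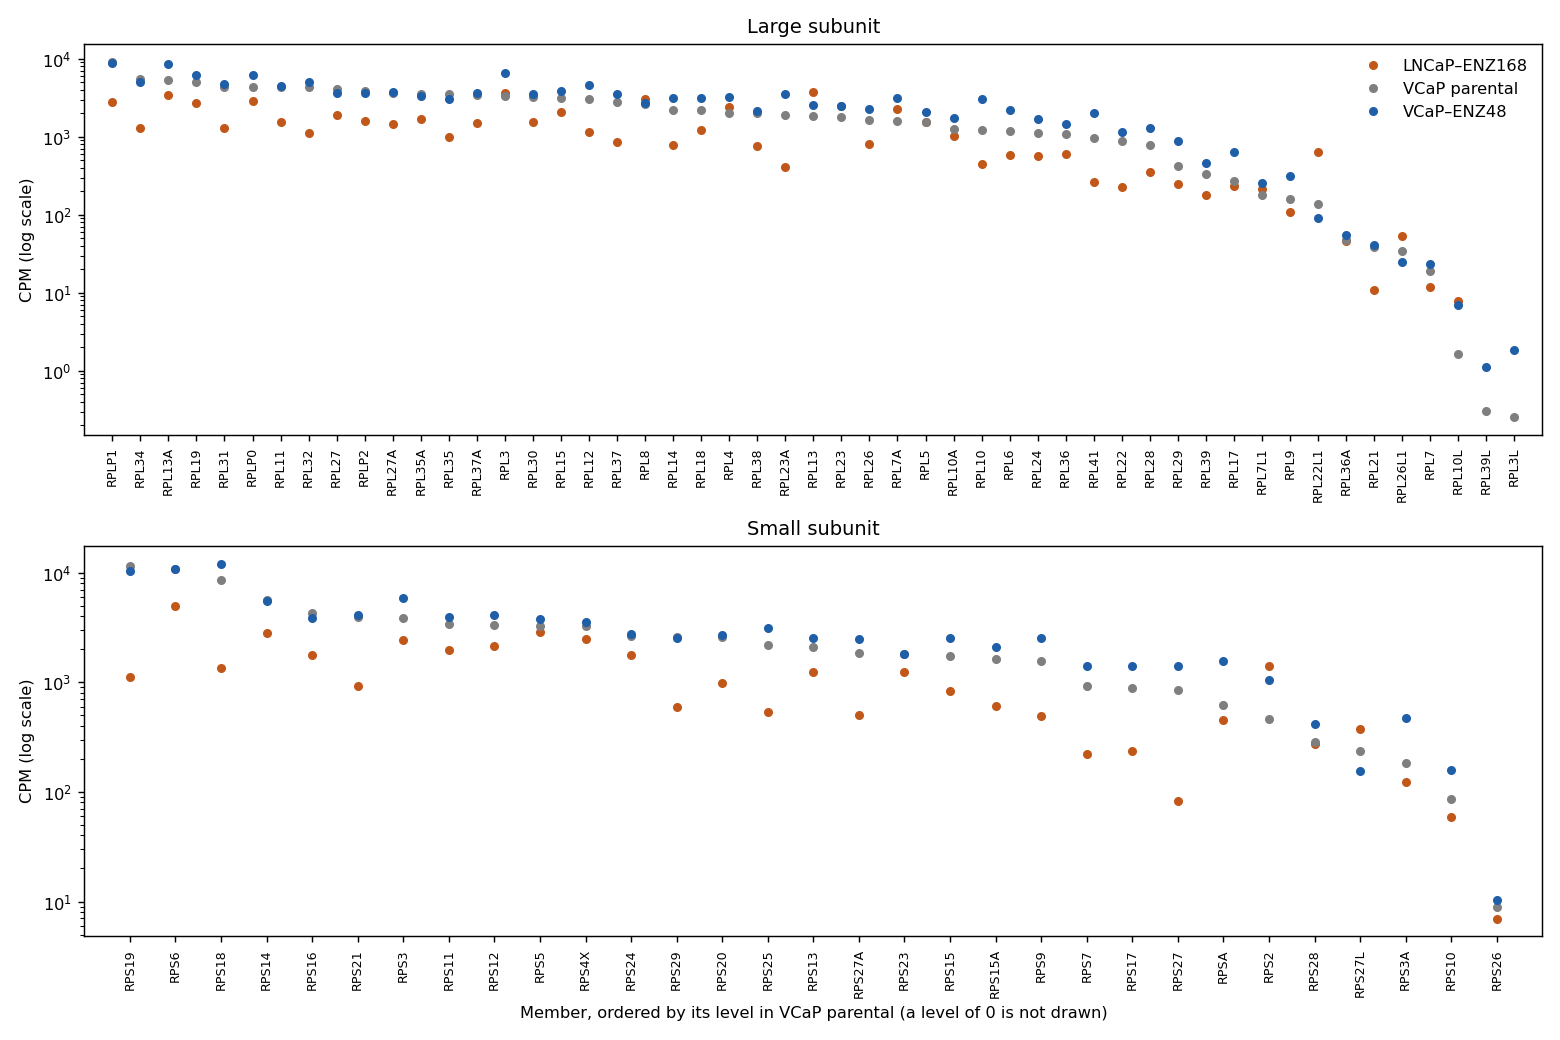
Each column is a member and each point its level in 1 library, in CPM on a log axis, with the large subunit above and the small subunit below, ordered by the level in VCaP parental; a level of 0 is not drawn. Most LNCaP–ENZ168 points lie below both VCaP points, with RPL22L1, RPS27L, RPL26L1, RPL13 and RPS2 among the exceptions.

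The levels also followed how much of a gene's sequence other genes share. For each member, the 400 bases of its main transcript that end 50 bases past the stop codon were cut into overlapping stretches of 50 bases, and the percentage of stretches found unaltered in transcripts of other genes, pseudogenes included, was counted. In VCaP parental the median level was 3472 CPM for the 16 usual members with under 10% of their stretches shared, 3282 CPM for the 25 members with 10% to 50%, and 1156 CPM for the 36 members with 50% or more. The same 3 medians were 1545, 1336 and 474 CPM in LNCaP–ENZ168 and 3628, 3487 and 1704 CPM in VCaP–ENZ48. All usual members under 200 CPM, 10 in LNCaP–ENZ168, 8 in VCaP parental and 5 in VCaP–ENZ48, were in the class with 50% or more.

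RPL7, a large-subunit protein with 85.8% of its stretches shared, gives an example that was chosen after its values were seen. Its own row held 11.9, 19.0 and 23.1 CPM, whereas the 60 rows named as RPL7 pseudogenes together held 80.3, 521 and 1342 CPM. A low row of such a member was therefore not read as a low messenger RNA level, and how reads that match several places were treated is not given in the sources used here.

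The question of the VCaP comparison was how ribosomal protein messenger RNA stood after 48 h of enzalutamide relative to vehicle. The ratio is the log2 of CPM + 1 in VCaP–ENZ48 over CPM + 1 in VCaP parental, for the 80 members with a mean of at least 10 CPM. Their median was 0.41 (quartiles 0.07 and 0.62), while the median of all 7729 genes above the same level was -0.07, so the class stood 0.48 above other genes, or 1.39-fold. For the 16 usual members of nearly unique sequence, described below, this distance was 0.12. Large-subunit members had a median of 0.45 (49 members) and small-subunit members 0.33 (31 members).

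Of the 80 members, 22 were higher by more than 1.5-fold, beside 15.6% of all genes, and 2 were lower by more than 1.5-fold, beside 17.9% of all genes. The 2 lower members were both paralogues, RPL22L1 and RPS27L, each at -1.02 from the class median. In cells with few cell-cycle UMIs, which left 12 cells of VCaP parental, 0 members were lower by more than 1.5-fold, and these distances shrank to -0.21 and -0.16. With the TMM factors of edgeR in place of the library totals, 13 were higher and 3 lower, and the class median was 0.11, still 0.45 above that of all genes. The shares of all genes past 1.5-fold given here hold for library totals of all kept cells. They were not recomputed for these alternatives, so the counts cannot be set against them. Above the median of all genes stood 70 of the 80, beside 50% of all genes.

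RPS3A, a protein of the small-subunit platform encoded at chr4:151099624-151104642 (GRCh38), stood at 182 CPM in VCaP parental and 473 CPM in VCaP–ENZ48, a log2 ratio of 1.37 (exact conditional interval from 1.32 to 1.44) and among the highest of the class. RPSA, also known as a laminin receptor, stood at 621 and 1553 CPM, a ratio of 1.32 (interval 1.29 to 1.36). These members and the next ones have most of their sequence in common with other genes.

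RPL10, one of the last proteins to join the large subunit, stood at 1230 and 3017 CPM, a ratio of 1.29. RPL17, which lines the peptide tunnel, stood at 270 and 641 CPM, a ratio of 1.25, and its exons overlap those of the readthrough gene RPL17-C18orf32, so counts could be split between them. RPS2, at the entry of the messenger RNA channel, stood at 459 and 1043 CPM, a ratio of 1.18. Each of these members lay at least 0.77 above the class median.

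At the low end, RPL35, RPL27, RPS16 and RPL34 had slightly lower CPM in VCaP–ENZ48 and also stood below the median of all genes. RPL35, a protein of the tunnel exit, stood at 3484 CPM in VCaP parental and 3037 CPM in VCaP–ENZ48, a ratio of -0.20 (-0.22 to -0.18). RPL27 stood at 4148 and 3655 CPM, a ratio of -0.18, and RPS16, a head protein of the small subunit, at 4275 and 3845 CPM, a ratio of -0.15. RPL34 stood at 5516 and 5008 CPM, a ratio of -0.14, as for RPS19. None of these passed 1.5-fold, and all 4 are among the better counted members.

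Among the members listed by role, the genes of the acidic stalk of the large subunit, which recruits the translation factors, stood on both sides of the class median. RPLP0, the stalk base, stood at 4370 and 6120 CPM, a ratio of 0.49. RPLP1 stood at 9147 and 8855 CPM, a ratio of -0.05, and RPLP2 at 3891 and 3630 CPM, a ratio of -0.10. From the class median RPLP0 thus stood at 0.07, RPLP1 at -0.46 and RPLP2 at -0.51.

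RPL5 and RPL11, which bind the 5S ribosomal RNA and together can block MDM2, had ratios of 0.45 and 0.05. RPL5 stood at 1525 and 2088 CPM and RPL11 at 4324 and 4467 CPM. RPS27A, made as a fusion with ubiquitin, had 1833 and 2462 CPM, a ratio of 0.43. RPS6 and RPS14, a platform protein, had ratios of 0.01 and -0.01, with intervals from -0.00 to 0.02 and from -0.02 to 0.01, so with library totals no difference was detectable for either at this depth. These ratios follow the scaling, at -0.28 and -0.30 with TMM factors and 0.12 and 0.11 over totals without mitochondrial and ribosomal protein genes. By position, the 8 members at the tunnel exit had a median 0.50 above that of all genes, the 14 members of the small-subunit head 0.53 and the 16 of its body 0.36.

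**Figure D3:**
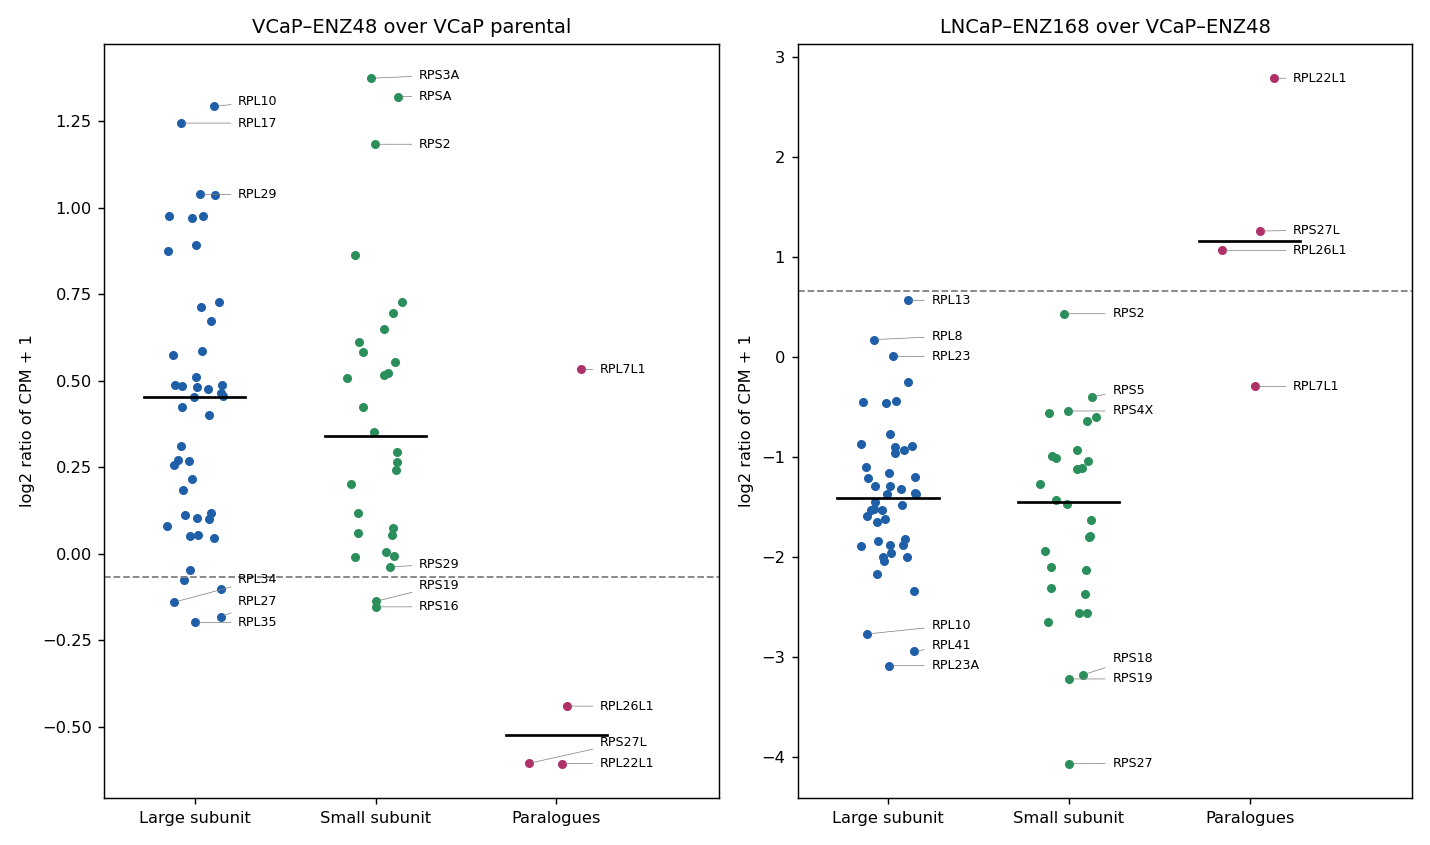
The vertical axis is the log2 ratio of CPM + 1, for VCaP–ENZ48 over VCaP parental on the left and LNCaP–ENZ168 over VCaP–ENZ48 on the right, on axes of different range; points are members, horizontal bars are group medians, and the dashed line is the median of all genes. RPS3A and RPSA are among the highest members on the left and RPS27 among the lowest on the right, and the paralogues RPL22L1, RPS27L and RPL26L1 lie below the class on the left and above it on the right; both panels share the VCaP–ENZ48 library.

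The ratios in the VCaP pair were ordered by shared sequence. The 16 usual members with under 10% of their stretches in other genes had a median ratio of 0.06 (lowest -0.18, highest 0.73), which is 0.12 above the median of all genes, and 1 of them was higher by more than 1.5-fold, beside 15.6% of all genes. The 25 members with 10% to 50% had a median of 0.27, and 3 passed. The 35 members with 50% or more had a median of 0.59, and 18 passed. Of the 22 members that passed, 18 were thus in the last class.

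Across the 76 usual members, Pearson's r of the ratio with the shared percentage was 0.61 (Spearman's rho 0.61), with their mean level -0.45 (rho -0.52) and with transcript length -0.06 (rho 0.04). These are descriptions across genes of the same libraries, which are not independent replicates. RPL28, with 9.12% of its stretches shared, is the 1 nearly unique member that passed, at 778 CPM in VCaP parental and 1289 CPM in VCaP–ENZ48. It was named after its values were seen. For LNCaP–ENZ168 over VCaP–ENZ48 r with the shared percentage was -0.18, and the medians of the 3 classes were -1.25, -1.46 and -1.53.

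**Figure D4:**
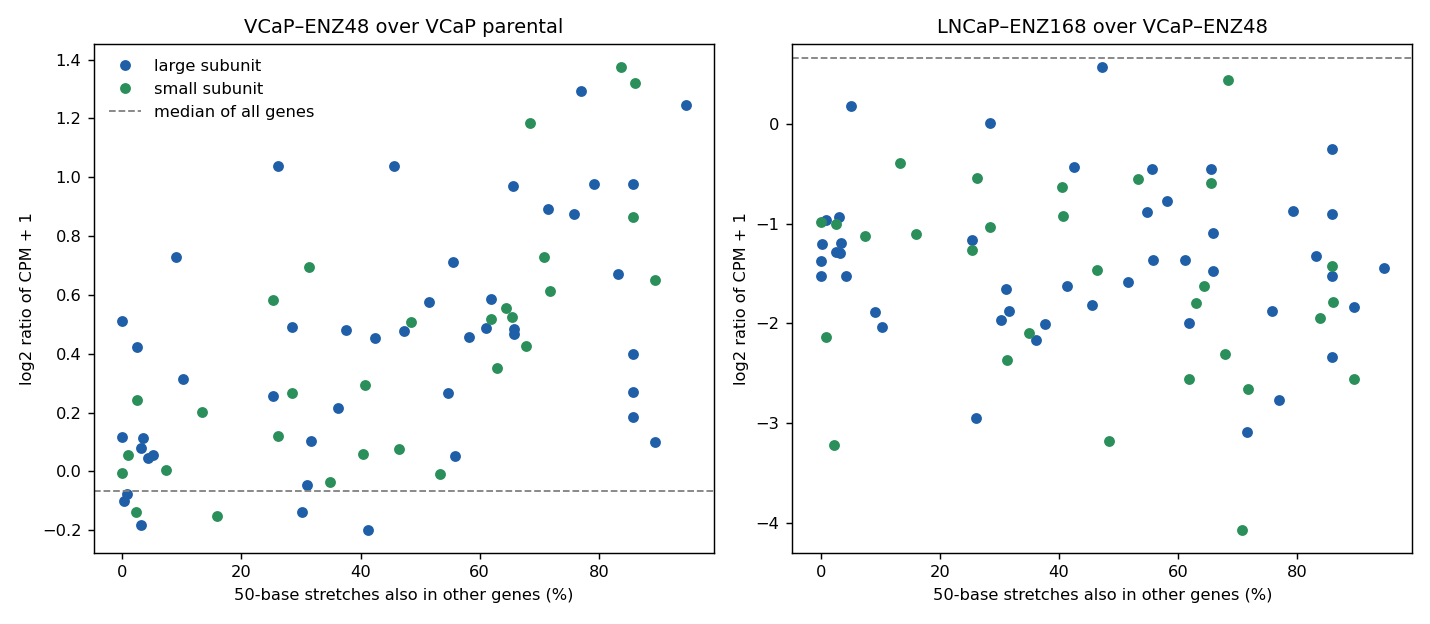
The horizontal axis is the percentage of a member's 50-base stretches that also occur in other genes, the vertical axis is its log2 ratio of CPM + 1 in each comparison, and the dashed line is the median of all genes; each point is a usual member. On the left the points climb from a median of 0.06 at under 10% to 0.59 at 50% or more, and on the right they show little slope.

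Rows named as ribosomal protein pseudogenes moved in the same direction as the members. There were 1064 such rows, and they summed to 1635 CPM in LNCaP–ENZ168, 4284 CPM in VCaP parental and 12953 CPM in VCaP–ENZ48. A filter on the mean of the pair favours rows that are high in VCaP–ENZ48, so rows were chosen by their level in VCaP parental alone; this filter was chosen after seeing the data. Of the 77 rows with at least 10 CPM there, 77 were higher in VCaP–ENZ48 by more than 1.5-fold, with a median log2 ratio of 1.53, beside 10.8% of all genes chosen in the same way. Per 100 member UMIs there were 1.61, 2.11 and 5.25 pseudogene UMIs.

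Pseudogenes of unrelated genes were higher too. There were 2260 processed pseudogene rows with other named parents, of which 15 had at least 10 CPM in VCaP parental. Of these 15, 11 were higher by more than 1.5-fold in VCaP–ENZ48 (median 1.00), also beside 10.8% of all genes. With the mean of the pair as filter 35 rows passed, and the 20 parents of those rows that passed it too had a median of 0.02. With the UMIs of each member's pseudogene rows added to its own, the class median in the VCaP pair was 0.49. The part of multiply matching reads in the higher ratios of sequence-sharing members was not tested.

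The median of each related gene group stood lower than that of the whole class, which was 0.48 above all genes. Of 77 mitochondrial ribosomal proteins above 10 CPM, which build the separate ribosome of the mitochondrion, 2 were higher and 22 lower by more than 1.5-fold in VCaP–ENZ48, beside 15.6% and 17.9% of all genes, and their median stood 0.36 below that of all genes. MRPL20, for example, went from 433 to 298 CPM. Of 20 ribosome biogenesis factors 0 were higher and 6 lower, with a median 0.32 below all genes, and NCL, the gene of nucleolin, went from 1370 to 917 CPM. Other messenger RNAs with a TOP tract stood between these groups and the whole class, with 7 of 17 higher, none lower, and a median 0.30 above all genes. They stood above the 16 usual members of nearly unique sequence, whose median was 0.12 above all genes with 1 of 16 higher. PABPC1, the poly(A)-binding protein, had 5427 and 5517 CPM.

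Ribosomal protein genes outside the name rule gave no common direction. RACK1, a head protein and kinase scaffold, had a ratio of 0.35, FAU, which is made as a fusion with a relative of ubiquitin, had -0.02, and RPL36AL, a retrocopy relative of RPL36A, had -0.71. Genes of the cell cycle moved with the comparison: 38 of 40 S-phase genes and 51 of 52 G2M genes were lower by more than 1.5-fold in VCaP–ENZ48, beside 17.9% of all genes. Restricted to cells with few cell-cycle UMIs, the class median was 0.32, but this left 12 cells of VCaP parental, and the part of the cell cycle was not tested further.

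LNCaP–ENZ168 over VCaP–ENZ48 sets side by side the treated libraries of both lines. The class median was -1.37 over 80 members, while the median of all 8854 genes was 0.65, a distance of -2.02. By more than 1.5-fold 64 members were lower, beside 15% of all genes, and 3 were higher, beside 53.1% of all genes. The 3 higher members were RPL22L1, RPS27L and RPL26L1, all paralogues, and of the 76 usual members 0 were higher and 64 lower by more than 1.5-fold. Large-subunit and small-subunit members had medians of -1.37 and -1.43.

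The same members against VCaP parental had a median of -1.01, with 5 higher, beside 49.5% of all genes, and 55 lower, beside 16.5%. Both comparisons use the LNCaP library, and the former shares VCaP–ENZ48 with the VCaP comparison.

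The row of RPS27, a zinc-finger protein of the small subunit, was among the lowest, with 82.7 CPM in LNCaP–ENZ168 (522 UMIs) against 844 CPM in VCaP parental and 1398 CPM in VCaP–ENZ48, a log2 ratio to VCaP–ENZ48 of -4.06 (-4.21 to -3.95). With 70.8% of its stretches shared, this low row was not read as a low messenger RNA level. RPS19, the highest member in VCaP parental, had a ratio of -3.22, and RPS18, the highest in VCaP–ENZ48, had -3.18. RPL23A, a docking site at the tunnel exit, had 414 CPM against 1895 and 3516 CPM, a ratio of -3.08. It has 71.5% of its stretches shared, against 2.28% for RPS19, so its low row was likewise not read as a low messenger RNA level. RPL41, the shortest ribosomal protein, had 260 CPM against 976 and 2004 CPM, a ratio of -2.94. The ratios of RPS27, RPS19, RPS18, RPL23A and RPL41 to VCaP parental were -3.34, -3.35, -2.67, -2.19 and -1.90 in this order, all below the class median.

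RPL13, a large-subunit protein, was the highest usual member, with 3778 CPM in LNCaP–ENZ168 against 1833 and 2552 CPM, a ratio of 0.57 to VCaP–ENZ48. RPS2 had 1409 CPM against 459 and 1043 CPM, a ratio of 0.43. RPL8, which contacts the peptidyl transferase centre, had 3054 CPM against 2605 and 2706 CPM, a ratio of 0.17. These 3 lay below the median of all genes but at least 1.54 above the class median. RPL5 had 1544 CPM against 1525 and 2088 CPM, a ratio of -0.44, while its partner RPL11 had 1549 CPM against 4324 and 4467 CPM, a ratio of -1.53.

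The stalk genes RPLP0, RPLP1 and RPLP2 had ratios of -1.10, -1.65 and -1.21, with 2864, 2819 and 1573 CPM in LNCaP–ENZ168. RPS6 had a ratio of -1.12, RPS27A of -2.30 and RPSA of -1.79. All 8 members at the tunnel exit and 13 of the 14 in the small-subunit head were lower by more than 1.5-fold, as were 12 of the 16 in its body, beside 15% of all genes. The median of the mitochondrial ribosomal proteins stood 0.31 below that of all genes, with 28 of 77 higher and 7 lower beside 53.1% and 15% of all genes, that of the ribosome biogenesis factors 0.06 below and that of other TOP messenger RNAs 0.89 below. The distance of -2.02 for the cytosolic class was thus greater than those of the latter 3 groups.

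The rows of the paralogues stood apart from the class, and a share of a pair's UMIs does not depend on scaling. RPL22L1 is the paralogue of RPL22, an RNA-binding protein of the large subunit. RPL22L1 held 3992 of the pair's 5427 UMIs in LNCaP–ENZ168 (73.6%, 72.4% to 74.7%), 13.7% of 19753 in VCaP parental (13.2% to 14.2%) and 7.30% of 17790 in VCaP–ENZ48 (6.92% to 7.69%). The row of RPL22L1 held more than that of RPL22 in the LNCaP library only, with 632 against 227 CPM, while in the VCaP libraries the row of RPL22 held 873 and 1153 CPM and that of RPL22L1 139 and 90.8 CPM.

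RPS27L, a paralogue of RPS27 known as a target of p53, held 81.9% of the pair's 2891 UMIs in LNCaP–ENZ168, 22.01% of 21117 in VCaP parental and 10.0% of 22230 in VCaP–ENZ48. RPS27L had 375, 238 and 156 CPM, and the row of RPS27 had 82.7, 844 and 1398 CPM. RPL26L1 held 6.15% of the UMIs it shared with RPL26 in LNCaP–ENZ168, 2.04% in VCaP parental and 1.09% in VCaP–ENZ48, with 53.1, 34.0 and 24.8 CPM. In these 3 pairs, of the 7 paralogues, the paralogue's share was highest in LNCaP–ENZ168 and lowest in VCaP–ENZ48.

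RPL22 and RPS27 share 85.8% and 70.8% of their stretches with other genes, against 4.27% for RPL22L1 and 0% for RPS27L, so in these pairs the paralogue is the uniquely countable partner. The shares are those of the counted rows, and how far the rows of RPL22 and RPS27 stand for their messenger RNA was not tested. For RPL26 and RPL26L1 the percentages were 65.8% and 59.0%.

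**Figure D5:**
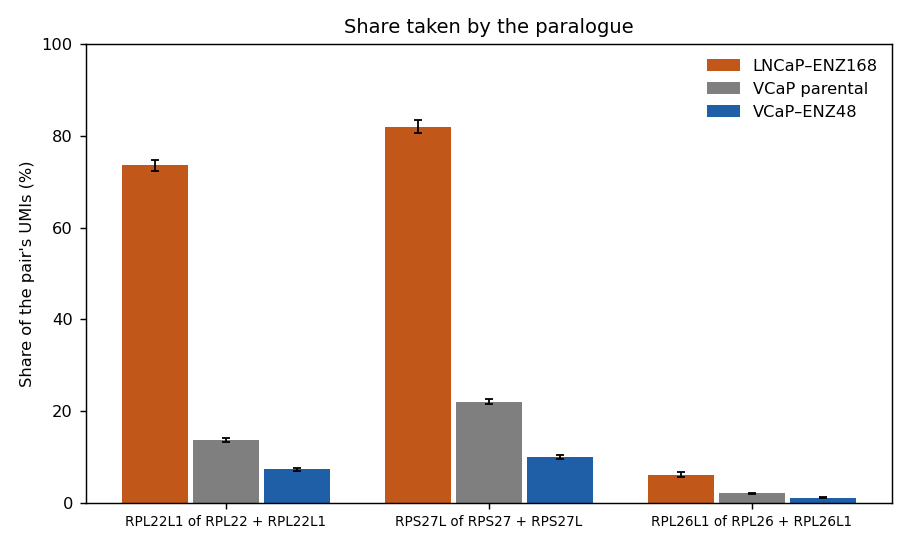
Bars give the percentage of a pair's UMIs that fell on the paralogue in each library, on an axis from 0, and error bars are exact Clopper-Pearson 95% intervals, which cover counting error only. RPL22L1 and RPS27L take 73.6% and 81.9% of their pair in LNCaP–ENZ168 and 7.30% and 10.0% in VCaP–ENZ48.

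The other paralogues were rare or showed no such order. RPL7L1, which acts in ribosome assembly, had 211, 178 and 259 CPM, and a share with RPL7 was not read because of the low RPL7 row. RPL10L, a testis paralogue of RPL10, had 50, 32 and 99 UMIs. RPL3L, the muscle form of RPL3, had 5 UMIs in VCaP parental and 26 in VCaP–ENZ48, and RPL39L had 6 and 16. Neither had a UMI in LNCaP–ENZ168, which allows a level of up to 0.475 CPM.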

How the data were processed

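The authors processed the reads with the Drop-seq tools pipeline and the STAR aligner on GRCh38 with Gencode annotation, and deposited 1 table of raw UMI counts (whole-number counts, gene by cell barcode, not normalised) for each of the 3 libraries. Each table held 1000 barcodes. Barcodes under 300 genes or 500 UMIs, or over 25% mitochondrial UMIs, were left out, and no doublet caller was run. Kept cells were summed for each library and scaled to a total of 1000000 (CPM). Ratios are log2 of CPM + 1, for genes whose mean over the pair reached 10 CPM, and a gene was called past 1.5-fold. With 1 library in each group there was no test. Intervals are 95% exact Poisson, Clopper-Pearson or conditional binomial intervals and, like the limit of 3 counts for a count of 0, cover counting error only. The depth of 6313283 to 19515202 UMIs for each library sets the precision.

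Members followed from their names. The members and gene lists were chosen with earlier results of these data known. Named genes were those of listed roles, the 6 farthest on either side of the class median in each of the 2 main pairs among members of at least 50 CPM, and the 5 of highest CPM in each library, with any others said to be chosen after their values were seen. Gene positions and transcripts came from Gencode 44, and all 84 members matched. The script was tested on simulated data. Python 3.11.15, pandas 2.3.3, scipy 1.17.1, R 4.3.3 and edgeR 4.0.16 (TMM factors only) were used, and other settings, some of them chosen after seeing the data, were run. Some single genes are not reported here and are not drawn, although class values include them.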

Additional observations from a re-analysis of the deposited data

Results flagged for a closer look

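Rows named as ribosomal protein pseudogenes lie outside the members and carried UMIs in every library, summing to 1635 CPM in LNCaP–ENZ168, 4284 CPM in VCaP parental and 12953 CPM in VCaP–ENZ48, each above the limit that a count of 0 allows. VCaP–ENZ48 thus held 3.02 times the CPM of VCaP parental, the vehicle library. The largest of these rows was RPS4XP22, with 89.8, 309 and 863 CPM, and RPL3P4 followed with 98.4, 190 and 762 CPM.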

How the results depend on the processing

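No paired analysis was possible because only 1 library stands for each group. The shares, class medians and counts were recomputed under each alternative, and no class median and no departure of a named member past 1.5-fold changed sign; of 396 recomputed departures of this size, 381 stayed past 1.5-fold, and those of RPL22L1 and RPS27L in the VCaP pair shrank to -0.21 and -0.16 in cells with few cell-cycle UMIs, where VCaP parental has 12 cells and LNCaP–ENZ168 has 48. The class median in the VCaP pair was 0.11 with TMM factors, 0.17 with median-of-ratios factors, 0.52 over totals without mitochondrial and ribosomal protein genes, 0.29 with each cell weighted equally, 0.44 with a mitochondrial limit of 15%, 0.34 without barcodes above 3 times the median UMI count and 0.32 in cells with few cell-cycle UMIs. Higher members then numbered 13, 14 and 35 under the first 3 of these, and lower members 1 with the stricter mitochondrial limit, 1 without deep barcodes, 0 over the reduced totals and 0 in cells with few cell-cycle UMIs. The share of all genes past 1.5-fold was not recomputed under these alternatives. Of the alternatives run, only those 3 scalings moved the count of higher VCaP members by over 1.5 times. For LNCaP–ENZ168 over VCaP–ENZ48 the class median was -1.90 with TMM, -1.86 with median-of-ratios factors, -1.62 over the reduced totals and -1.51 in cells with few cell-cycle UMIs.

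The ribosomal protein share of LNCaP–ENZ168, VCaP parental and VCaP–ENZ48 was 10.3%, 20.3% and 25.1% with the stricter mitochondrial limit, 9.95%, 20.3% and 24.2% without deep barcodes, 10.4%, 22.8% and 26.1% in cells with few cell-cycle UMIs and 9.76%, 20.4% and 23.3% with cells weighted equally. Without a filter on barcodes it was 10.0% in LNCaP–ENZ168 and 24.5% in VCaP–ENZ48. The large-subunit share was 58.9% in LNCaP–ENZ168 and 55.1% in VCaP parental in cells with few cell-cycle UMIs, 60.4% in LNCaP–ENZ168 and 56.5% in VCaP–ENZ48 with cells weighted equally, and in VCaP–ENZ48 56.8% with the stricter mitochondrial limit and 56.6% without deep barcodes.

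The following alternatives were chosen after seeing the data. With only barcodes that do not end in N, the ribosomal protein share was 20.8% in VCaP parental and 26.2% in VCaP–ENZ48, the large-subunit share 55.1% and 57.0%, 1 member was lower in the VCaP pair, and the class medians were 0.46 and -1.49. With pseudogene rows added to their members, the share was 10.3%, 20.7% and 25.97%, the large-subunit share 55.3% in VCaP parental and 57.4% in VCaP–ENZ48, and the class medians 0.49 and -1.48. With only the 16 members of under 10% shared stretches, the large-subunit share was 57.3%, 47.2% and 48.8% and the class medians 0.055 and -1.25. The causes of these shifts were not tested. A count at this depth limits single members only below a few CPM, whereas the lack of replicate libraries limits every comparison.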
